A study of Mus musculus with 77 samples.

Results

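Metallothioneins and zinc transporters were followed in the retinas of mice with oxygen-induced retinopathy (OIR), a model in which newborn pups breathe high oxygen and then return to room air. There were 5 such genes, *Mt1*, *Mt2*, *Mt3*, *Slc30a1* and *Slc39a14*, out of 21154 genes with a symbol on the array. They were chosen by symbol with earlier results of the same arrays known, among them the difference between OIR and control retinas, so that their levels by day and oxygen are described here without a test. All probes whose transcript belongs to one of these symbols were taken, which gave 2 probes for *Mt1* and 1 for each of the other genes. A gene was represented by its brightest probe.

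Each of the 77 arrays carried the RNA of 1 C57BL/6 mouse, with both retinas pooled, against a universal mouse reference RNA. OIR pups were kept in 75% oxygen from P7 to P12 and then in room air, whereas control pups stayed in 21% oxygen. Retinas were collected on P12 (13 OIR and 12 control mice), P17 (13 and 12) and P28 (13 and 14). All mice were of one strain, and no allele was changed. Whole litters were given one oxygen level, with several litters at each level. It is not given which mice shared a litter, so that litter could not be fitted, and mice are counted as independent.

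Metallothioneins are small cysteine-rich proteins that bind zinc and copper. *Mt1* and *Mt2* are expressed in most tissues and are switched on by zinc through the transcription factor MTF1, which binds metal response elements in their promoters, as well as by glucocorticoids, by cytokines that signal through gp130 and STAT3, and by oxidative stress. *Mt3* is the metallothionein of neural tissue and responds little to metals. *Slc30a1* (ZnT1) moves zinc out of the cell across the plasma membrane and is itself a target of MTF1, whereas *Slc39a14* (ZIP14) brings zinc, iron and manganese into the cell. In the retina, metallothioneins are found in glia among other cells.

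*Mt3*, *Mt2* and *Mt1* lie close together on chromosome 8 (GRCm38.p6, RefSeq), at chr8:94152607-94154148, chr8:94172618-94173567 and chr8:94178883-94180327. With *Mt4* they make up a cluster of 43124 bases. *Slc30a1* lies at chr1:191906697-191913248 and *Slc39a14* at chr14:70303467-70351452. Promoter sequences of RefSeq (GRCm38.p6) were matched for 4 of the 5 genes, without *Slc39a14*. They are shown because *Mt1* and *Mt2* had similar differences in the data and *Mt3* and *Slc30a1* did not. The 250 bases before the start that the promoter table uses are given 5′ to 3′ on the strand of the gene, which is the plus strand for all 4, and capitals mark the letters TGCACNC or TGCGCNC, the core of a metal response element, on either strand. The gene spans of *Mt1* and *Slc30a1* given above begin inside their windows, so that the rest of these windows lies within the annotated gene.
Mt2 (chr8:94172368-94172617): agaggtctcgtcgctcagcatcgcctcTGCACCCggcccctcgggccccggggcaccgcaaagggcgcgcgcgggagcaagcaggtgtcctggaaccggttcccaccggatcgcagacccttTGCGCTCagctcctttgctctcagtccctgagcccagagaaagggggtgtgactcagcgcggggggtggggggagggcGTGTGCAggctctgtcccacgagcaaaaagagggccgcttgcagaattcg
Mt1 (chr8:94178839-94179088): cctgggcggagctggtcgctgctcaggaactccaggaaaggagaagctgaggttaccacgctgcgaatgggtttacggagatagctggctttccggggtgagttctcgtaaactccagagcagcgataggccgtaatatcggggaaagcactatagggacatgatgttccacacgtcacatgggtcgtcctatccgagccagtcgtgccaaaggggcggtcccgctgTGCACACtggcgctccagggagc
Mt3 (chr8:94152357-94152606): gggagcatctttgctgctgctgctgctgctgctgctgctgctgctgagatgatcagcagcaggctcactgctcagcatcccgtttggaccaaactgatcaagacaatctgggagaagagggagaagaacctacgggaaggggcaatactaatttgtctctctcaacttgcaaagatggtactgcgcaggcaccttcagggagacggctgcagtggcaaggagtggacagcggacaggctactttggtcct
Slc30a1 (chr1:191906531-191906780): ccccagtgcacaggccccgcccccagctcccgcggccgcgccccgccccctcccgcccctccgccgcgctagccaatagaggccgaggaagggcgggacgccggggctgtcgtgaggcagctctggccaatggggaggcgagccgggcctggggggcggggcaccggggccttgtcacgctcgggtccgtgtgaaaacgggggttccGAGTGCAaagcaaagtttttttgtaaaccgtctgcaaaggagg

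The *Mt2* window held 3 of these matches, the *Mt1* window 1, the *Slc30a1* window 1 and the *Mt3* window none. Of all 32851 promoter windows of the same length, 21.4% held at least 1 match and 1.26% held at least 3. The letters TGACNNNGC, the core of an antioxidant response element, were found 1 time in the *Mt2* window and 1 time in the *Slc30a1* window, and in 10.2% of all windows. The letters TTCCNGGAA, a site for STAT factors, were not in any of the 4 windows and were in 0.910% of all windows. Neither of these overlapped a metal response match. A match of letters is a description and does not show that a factor binds, and elements outside these windows were not searched. The counts depend on where each window was placed. Most of the *Mt1* window lies within the annotated gene span, so its count is not the number of such elements that *Mt1* has.

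The values of each mouse are given as the log2 ratio of the retina to the reference, after background correction with an offset of 50 and loess within the array. The sample labels place the retina in Cy5 and the reference in Cy3. However, the rod genes *Sag*, *Gnat1*, *Nrl* and *Pde6b* were brighter in Cy3 on 77 of 77 arrays, so that Cy3 was taken as the retina, and the direction used here is opposite to that of the labels. A negative value means less signal from the retina than from the reference RNA. The offset draws the ratios of dim probes toward 0. In the following, a difference is the mean of OIR mice minus the mean of control mice of the same day on this log2 scale, with its standard error (SE).

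All groups met the label of retina, and on each of the 77 arrays these 4 rod genes were well above background. On P12 and P17, the median number of probes well above background was between 20074 and 21122 per group, whereas on P28 it was 32192.5 in control and 32916 in OIR mice, so that day and brightness of the arrays moved together. The arrays lay on 11 slides, of which 7 held both groups of P12, 6 those of P17 and 3 those of P28. For 4 arrays the median Pearson correlation with the other arrays of the group was between 0.780 and 0.831, while it was at least 0.863 on the other 73. These were 1 control mouse of P12, OIR mouse 210 of P17 and OIR mice 18 and 22 of P28, and the results are given with and without them. OIR mice 18 and 22 had 16912 and 19046 probes well above background, while the other OIR arrays of P28 had at least 30835. Control mice 41, 65, 69, 75 and 85 of P28 were similarly dim (19969 to 21000 probes) and were kept. Without mice 18 and 22, the P28 groups thus differed in brightness, and the part of this was not tested. In whole retinas, fewer cells of a type and less RNA per cell cannot be told apart.

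*Mt2* showed the largest differences of the 5 genes on P17 and P28. On P17, the log2 ratio of *Mt2* in OIR mice was lowest at −1.71, with a median of −0.45 and a highest value of 0.38. In control mice of P17 it was lowest at −3.31, with a median of −2.78 and a highest value of −2.10. Every OIR mouse lay above every control mouse of that day, with a gap of 0.39. Across the array, 0.117% of the probes (65 of 55481) had OIR values that were all above the control values on P17. The mean was −0.54 ± 0.65 (SD, n = 13) in OIR and −2.78 ± 0.28 (n = 12) in control mice, which is a difference of 2.24 (SE 0.197), or 4.72-fold. In the ratio with the offset, only 2 of the 21154 genes had a larger positive difference on that day. As the offset draws the ratios of dim probes toward 0, this rank holds for that ratio only. Ranks under other ratios are not given here. The paper's list of the most overexpressed retinal genes of P17 holds neither *Mt2* nor *Mt1*.

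On P28 the values of *Mt2* had come closer. The log2 ratio of OIR mice was lowest at −2.55, with a median of −2.01 and a highest value of −1.36, whereas that of control mice was lowest at −3.71, with a median of −2.87 and a highest value of −2.53. The groups overlapped by 0.025 only, and 12 of 13 OIR mice lay above the highest control mouse. Values without any overlap, OIR higher, were seen for 0.0054% of the probes on P28. The difference was 0.98 (SE 0.121), or 1.98-fold. Without the 4 arrays that stood apart, it was 0.96 on P28 and 2.19 on P17.

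On P12, at the end of the oxygen exposure, *Mt2* was low in both groups. The log2 ratio in OIR mice was lowest at −4.62, with a median of −4.22 and a highest value of −3.35, and in control mice it was lowest at −4.55, with a median of −4.15 and a highest value of −3.55. The groups overlapped over nearly their whole range. The difference of −0.09 (SE 0.141) was smaller than the SD of either group. No probe had OIR values all above the control values on this day (0%).

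*Mt1*, the neighbor of *Mt2* on chromosome 8, followed the same course with smaller differences. On P17, its log2 ratio in OIR mice was lowest at −1.49, with a median of −0.65 and a highest value of −0.22. In control mice it was lowest at −2.58, with a median of −2.21 and a highest value of −1.77. In the ratio with the offset, the groups again did not overlap, with a gap of 0.29. Such values, OIR higher, were seen for 0.117% of the probes on P17. In the ratios processed by the authors the gap was −0.03, so that the groups overlapped. There, 12 of 13 OIR mice lay above the highest control mouse. With the offset, the difference was 1.44 (SE 0.134), or 2.70-fold, which was the 19th largest positive difference among the genes. This rank, too, holds for that ratio only.

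On P28, the log2 ratio of *Mt1* was lowest at −2.45, with a median of −1.94 and a highest value of −1.77 in OIR mice. In control mice it was lowest at −3.07, with a median of −2.50 and a highest value of −2.04. The groups overlapped, and 9 of 13 OIR mice lay above the highest control mouse, while 13 of 13 lay above the control median. The difference was 0.52 (SE 0.102), or 1.44-fold. On P12, *Mt1* had a mean of −3.51 ± 0.29 (n = 13) in OIR and −3.37 ± 0.34 (n = 12) in control mice, which overlapped widely.

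The other *Mt1* probe, which targets a predicted transcript (XM_006530752), was dim. It was not well above background in the retina channel on any array of P12, nor on the 12 control arrays of P17, and it was so on 5 of 13 OIR arrays of P17, and on 11 of 13 OIR and 9 of 14 control arrays of P28. In the quantile-normalized retina channel, the mean of all 13 OIR arrays of P17 was 1.19-fold against control values bounded by the lowest signal well above background. As only 5 of these 13 OIR arrays were well above background, this value is not a lower bound of the fold. On P28, the difference at this probe was 0.04 with the offset of 50 and 0.82 in the ratios processed by the authors, against 0.52 and 0.73 at the brightest probe, so that the probes disagreed with the offset of 50.

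**Figure D1:**
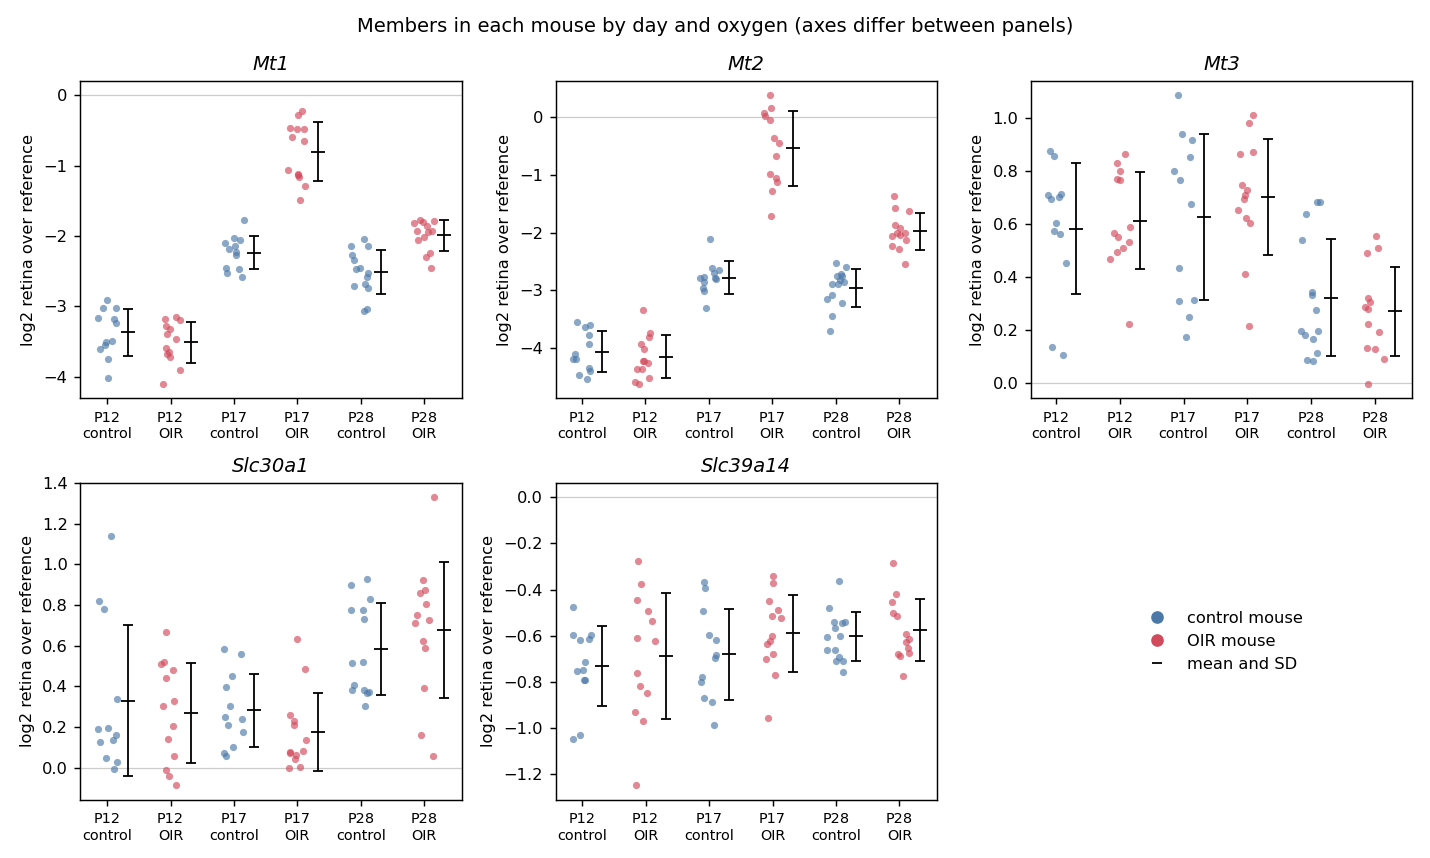
Log2 ratio of retina to reference for the brightest probe of each gene, with 1 point per mouse in each of the 6 groups of day and oxygen, and the mean and SD beside the points. The vertical axes differ between panels. In this ratio, *Mt1* and *Mt2* do not overlap between OIR and control mice on P17, while *Mt3*, *Slc30a1* and *Slc39a14* overlap on every day. In the ratios processed by the authors, which are not shown, *Mt1* overlaps on P17.

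*Mt1* and *Mt2* also differed by age in control mice. From P12 to P17 the mean of control mice was higher by 1.29 (SE 0.163) for *Mt2* and by 1.14 (SE 0.126) for *Mt1*. From P17 to P28 it changed by −0.18 (SE 0.157) and −0.28 (SE 0.121), but in the ratios processed by the authors by −0.02 and 0.05, so that the direction for *Mt1* turned. Ordered by their means with the offset of 50, both genes had the same sequence of groups, namely P17 OIR, P28 OIR, P17 control, P28 control, P12 control and P12 OIR. In this order, the neighbors P17 control and P28 control differed by less than the larger of their SDs for both genes, and so did P12 control and P12 OIR. For *Mt1*, the step of 0.24 from P28 OIR to P17 control was hardly larger than the SD of 0.24 of the P17 control mice, whereas in the retina channel alone this step was 0.56 against an SD of 0.20.

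The spread between mice was uneven. The 13 OIR mice of P17 covered a range of 2.09 for *Mt2* and 1.26 for *Mt1*, the widest range of any group for both genes. In the other 5 groups the range was between 0.995 and 1.27 for *Mt2*, and between 0.685 and 1.11 for *Mt1*.

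*Mt3*, the neural metallothionein, did not follow *Mt1* and *Mt2*. On P17 its log2 ratio was between 0.21 and 1.01 with a median of 0.71 in OIR mice, and between 0.17 and 1.09 with a median of 0.72 in control mice. The groups overlapped over nearly the whole range. Its differences were 0.03 (SE 0.084) on P12, 0.08 (SE 0.104) on P17 and −0.05 (SE 0.074) on P28. The means of *Mt3* were lower on P28, at 0.27 ± 0.17 (n = 13) in OIR and 0.32 ± 0.22 (n = 14) in control mice, than on P17, at 0.70 ± 0.22 (n = 13) and 0.63 ± 0.31 (n = 12), although the arrays of P28 were brighter as well and the part of brightness in this was not tested.

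*Slc30a1*, the zinc exporter of the plasma membrane, showed no separation of the groups on any day. On P17 its log2 ratio was between 0.00 and 0.63 with a median of 0.08 in OIR mice, and between 0.06 and 0.58 with a median of 0.24 in control mice. The difference of −0.11 (SE 0.072) was smaller than the SD of either group, and the values of 10 of 13 OIR mice were under the median of the controls. It was −0.06 (SE 0.122) on P12 and 0.09 (SE 0.105) on P28. In the ratios processed by the authors the difference of P17 was −0.32. Hence *Slc30a1* did not move in the direction of *Mt1* and *Mt2* on P17 under either ratio. Its means were highest on P28, at 0.68 ± 0.33 (n = 13) in OIR and 0.58 ± 0.23 (n = 14) in control mice. On P17 they were 0.18 ± 0.19 (n = 13) and 0.28 ± 0.18 (n = 12). The arrays of P28 were brighter as well, and the part of brightness in this was not tested.

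*Slc39a14*, the zinc and iron importer, was near background. It was well above background in the retina channel on 7 of 13 OIR and 10 of 12 control arrays of P12. The numbers were 10 of 13 and 8 of 12 for P17, and 13 of 13 and 13 of 14 for P28. Its difference was 0.04 (SE 0.090) on P12, 0.09 (SE 0.071) on P17 and 0.03 (SE 0.046) on P28, each smaller than the SD of either group. On this scale, no pair of neighbors in the order of the 6 groups differed by more than the larger SD for *Slc30a1* and *Slc39a14*. In the ratios processed by the authors, however, *Slc39a14* was higher in P28 control than in P17 control mice by 0.83, against an SD of 0.62. For *Mt3*, with the offset of 50, no neighbors differed by more than the larger SD except P12 control and P28 control, with a step of 0.26 against an SD of 0.25.

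The differences were also computed within each slide that held both groups. On P17, *Mt2* was higher in OIR mice on 6 of 6 slides, by 1.80 to 2.57, and *Mt1* on 6 of 6 slides, by 1.11 to 1.64. On P28, *Mt2* was higher on 3 of 3 slides, by 0.74 to 1.47, and *Mt1* on 3 of 3, by 0.38 to 0.98. On P12 *Mt2* was higher on 4 of 7 and *Mt1* on 2 of 7 slides. *Slc30a1* was higher in OIR mice on 0 of 6 slides on P17, with differences from −0.16 to 0.00. In the channel of the reference RNA, which is the same on all arrays, the difference on P17 was −0.12 (SE 0.074) for *Mt2* and −0.04 (SE 0.057) for *Mt1*.

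**Figure D2:**
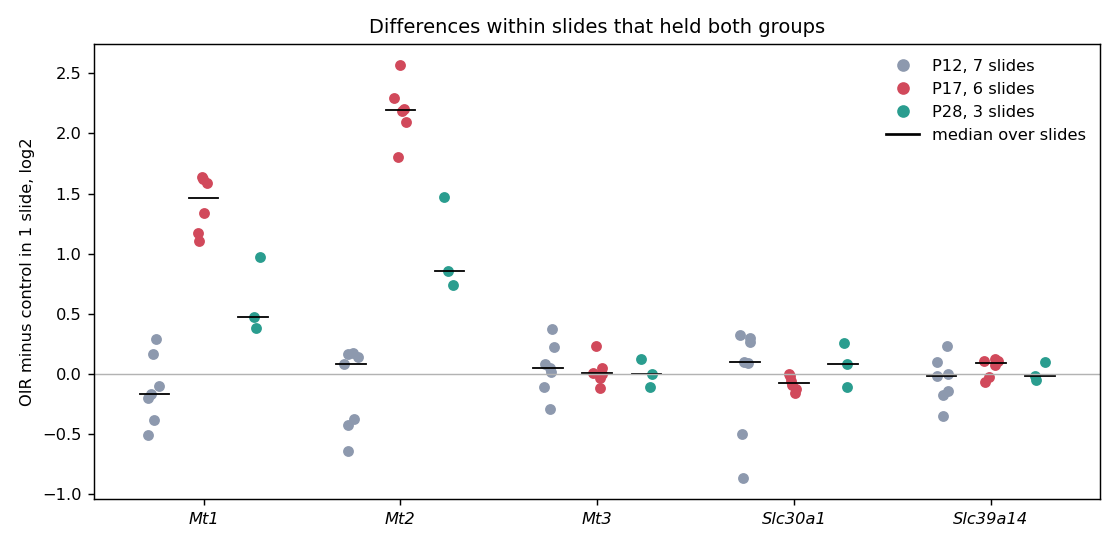
Difference between the means of OIR and control mice (log2) on each slide that held both groups, with 1 point per slide, for the brightest probe of each gene. There were 7 slides on P12, 6 on P17 and 3 on P28, and black lines are medians over slides. For *Mt1* and *Mt2* all points of P17 and P28 lie above 0, whereas those of P12 lie on both sides.

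Next, it was asked whether the genes vary together among mice of the same day and oxygen, which does not use the differences between groups. *Mt2* was set against each of the other 4 genes within each of the 6 groups, which makes 24 relations, with two-sided permutation tests (100000 permutations) and Benjamini-Hochberg adjustment over the 24. *Mt1* and *Mt2* were related in 5 of the 6 groups by Pearson's r and in 4 by Spearman's rho, and in 3 groups by either measure without the 4 arrays that stood apart. The P17 control mice held none of these arrays, so that their r was the same and only the adjustment over the 24 relations changed. In OIR mice of P17, Pearson's r was 0.97 and Spearman's rho 0.95 (n = 13, permutation p = 1e-05 for both, the smallest that the permutations can give, adjusted p = 0.00012 and 0.00024). Without the 2 mice farthest from the median of *Mt2*, r was 0.96. Mice of this group with high *Mt2* were thus those with high *Mt1*.

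In control mice of P28, r between *Mt1* and *Mt2* was 0.90 and rho 0.89 (n = 14, permutation p = 1e-05 and 9e-05, adjusted p = 0.00012 and 0.00108), and r was 0.81 without the 2 farthest mice. In OIR mice of P28, r was 0.73 and rho 0.84 (n = 13, permutation p = 0.00412 and 0.00073, adjusted p = 0.0198 and 0.00584), and r was 0.67 without the 2 farthest mice. Without OIR mice 18 and 22, whose arrays stood apart, r of this group was 0.70 and did not pass (n = 11, adjusted permutation p = 0.0508). In control mice of P12, r was 0.81 and rho 0.78 (n = 12, permutation p = 0.00205 and 0.00413, adjusted p = 0.0164 and 0.0198), and r was 0.72 without the 2 farthest mice. Hence, in the main log2 ratio, r was at least 0.67 in these 3 groups without the 2 farthest mice. In the ratios processed by the authors, r without the 2 farthest mice was 0.92 in P28 control, 0.56 in P28 OIR and 0.50 in P12 control mice.

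In control mice of P17, r between *Mt1* and *Mt2* was 0.69 and rho 0.58 (n = 12, permutation p = 0.0118 and 0.0529, adjusted p = 0.0430 and 0.181). Without the 2 farthest mice r was 0.23, so that in the main log2 ratio the relation rests on these mice. The other settings differed. In the ratios processed by the authors, r was 0.79 and rho 0.78 (adjusted permutation p = 0.0140 and 0.0193), and r was 0.85 without the 2 farthest mice. With slide means taken out, r of the P17 control mice was 0.84 (adjusted permutation p = 0.00624), and 0.67 without the 2 farthest mice. In OIR mice of P12, r was 0.50 and rho 0.53 (n = 13, permutation p = 0.0816 and 0.0679, adjusted p = 0.178 and 0.182), and r was 0.69 without the 2 farthest mice. With the slide means taken out, r was 0.75 in this group, with an adjusted permutation p of 0.0145. Cross-hybridization between the probes of *Mt1* and *Mt2*, which are alike in sequence, was not tested.

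**Figure D3:**
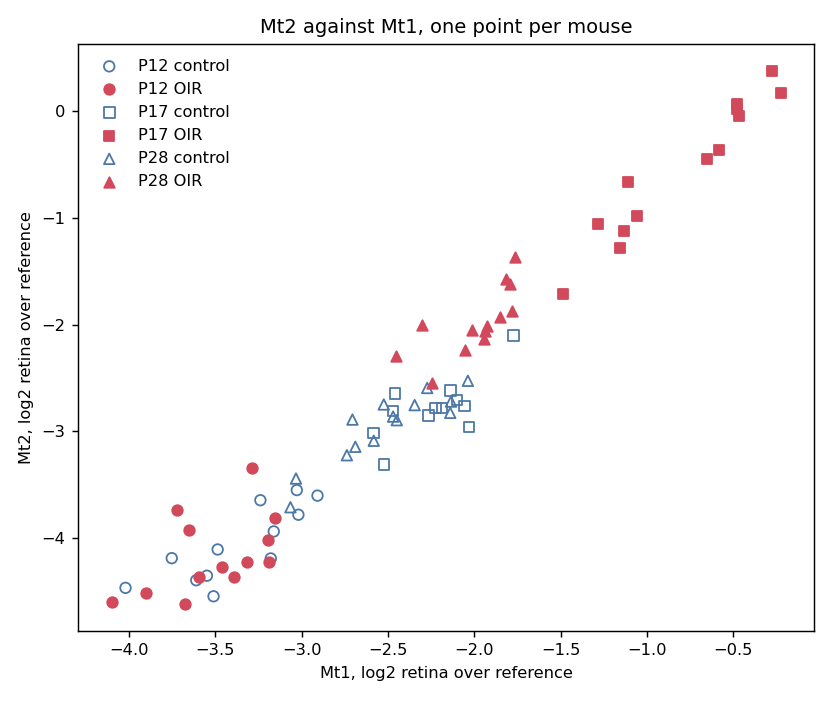
Log2 ratio of *Mt2* against that of *Mt1*, with 1 point per mouse, where the shape gives the day and filled points are OIR mice. The OIR mice of P17 lie at the upper right, from −1.49 to −0.22 for *Mt1* and from −1.71 to 0.38 for *Mt2*, and all mice of P12 at the lower left.

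*Mt2* and *Mt3* were not related beyond the threshold in any group, with r between −0.20 and 0.63. With slide means taken out, rho of the P12 control mice was 0.80 (n = 12, adjusted permutation p = 0.0152), while r was 0.61 (adjusted permutation p = 0.0853). *Mt2* and *Slc30a1* were inversely related in OIR mice of P12, with r = −0.74 and rho = −0.66 (n = 13, permutation p = 0.00371 and 0.0150, adjusted p = 0.0198 and 0.0599), and with r = −0.66 without the 2 farthest mice. In control mice of P12, r was −0.62 (n = 12, permutation p = 0.0302, adjusted p = 0.0806). In the ratios processed by the authors, r of the P12 OIR mice was −0.47, which did not pass. *Mt2* and *Slc39a14* were related in OIR mice of P12 with r = 0.67 and rho = 0.76 (n = 13, permutation p = 0.0125 and 0.00371, adjusted p = 0.0430 and 0.0198), and r was 0.60 without the 2 farthest mice, but −0.13 in the ratios processed by the authors.

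Over all 77 arrays, the 3 genes most like *Mt2* were *Mt1* (Pearson's r = 0.98), *Pcolce* (0.90) and *2610528A11Rik* (0.89), and those most like *Mt1* were *Mt2* (0.98), *Slc16a3* (0.90) and *2610528A11Rik* (0.88). These correlations include the differences between groups and serve as a description. With the mean of each group taken out, *Mt1* and *Mt2* were still the most like each other of the 21154 genes (r = 0.81), and *Pcolce* (0.58) and *Bcl3* (0.55) came next for *Mt2*, and *S100a6* (0.54) and *Pcolce* (0.50) for *Mt1*. The genes most like *Mt3* were *Pcsk1n* (0.89), *1700113A16Rik* (0.88) and *Hsd17b14* (0.87). For *Slc30a1* they were *Snx10* (0.93), *Tspyl3* (0.93) and *Lysmd4* (0.92), and for *Slc39a14* they were *Nampt* (0.83), *Bst1* (0.83) and *Kazald1* (0.81). With group means taken out, *4930432M17Rik*, *Klhl36* and *Pygm* (0.86 to 0.87) were most like *Mt3*, *Snx10*, *Tspyl3* and *Lypd6b* (0.90) most like *Slc30a1*, and *Nampt* (0.87), *F3* (0.84) and *Gas2* (0.83) most like *Slc39a14*. Arrays share slide, brightness and hybridization, and the part of these in the likeness was not tested.

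Around the 5 genes, 80 other genes of metal handling and of the signals known to act on *Mt1* and *Mt2* were tested with limma, adjusted over all 55681 probes. On P17, 7 of the 80 were overexpressed and 1 was underexpressed in OIR retinas (10% of the list), while 1.14% of all probes (0.81% upwards and 0.33% downwards) and 2.31% of all genes passed. The median difference over the 80 genes was 0.02, and over all genes it was −0.003. On P12, 0 of the 80 genes passed with limma, 4 had an unadjusted p under 0.05, and 0.0216% of the probes passed. On P28, 0 of the 80 genes passed, 15 had an unadjusted p under 0.05, and 0.0611% of the probes passed. Without the 4 arrays that stood apart, 5 of the 80 genes passed on P28, 4 upwards and 1 downwards, as did 3.14% of all probes. In this setting the P28 groups also differed in brightness, and its part was not tested. The OIR effect itself differed between days for 4 of the 80 genes from P12 to P17 (0.487% of all probes, 1.06% of all genes). It differed for 3 from P17 to P28 (0.278% of all probes, 0.577% of all genes). The latter count was 1 without OIR mouse 210 of P17, and 24 without the 4 arrays that stood apart, when 16.9% of all probes passed. The same difference in brightness between the P28 groups held for the count of 24.

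Of the other zinc transporters, *Slc39a1* (ZIP1), an importer of the plasma membrane, was the one that passed for OIR against control mice on P17. Its log2 ratio was −0.54 ± 0.10 (SD, n = 13) in OIR and −0.96 ± 0.19 (n = 12) in control mice, which is a difference of 0.42 (SE 0.058, limma adjusted p = 0.000106), and 13 of 13 OIR mice lay above the control median. The other 12 importers did not pass. None of the 9 other exporters passed with limma on P17 (0 of 9, with 1 at an unadjusted p under 0.05), and their differences were between −0.34 and 0.05. *Slc30a4* (ZnT4) had the lowest value, −0.34 (SE 0.106, limma adjusted p = 0.158). For *Mtf1*, the metal-sensing transcription factor, the difference was −0.18 (SE 0.112, limma adjusted p = 0.589), and for *Mt4*, which is known from squamous epithelium and was well above background on 1 of 13 OIR and 1 of 12 control arrays of P17, no fold is given.

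Among the genes of copper and iron, *Cp* and *Ftl1* were overexpressed on P17. *Cp* encodes ceruloplasmin, a copper-bearing ferroxidase. Its log2 ratio was −0.47 ± 0.33 (SD, n = 13) in OIR and −1.60 ± 0.32 (n = 12) in control mice, a difference of 1.13 (SE 0.127, limma adjusted p = 3.9e-06). It was 1 of 10 genes of copper handling that passed. *Ftl1*, the light chain of ferritin that stores iron, was higher by 0.54 (SE 0.107, limma adjusted p = 0.00683) and was 1 of 12 genes of iron handling. In the ratios processed by the authors *Ftl1* did not pass (adjusted p = 0.123).

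Of the 13 genes of gp130 signaling, 3 were overexpressed on P17. *Stat3*, the transcription factor activated by these cytokines, had a log2 ratio of 1.34 ± 0.38 (SD, n = 13) in OIR and −0.16 ± 0.16 (n = 12) in control mice, a difference of 1.51 (SE 0.116, limma adjusted p = 6.79e-09). *Socs3*, a feedback inhibitor of the pathway, was higher by 0.86 (SE 0.144, limma adjusted p = 0.00104), and *Osmr*, the receptor of oncostatin M, by 0.84 (SE 0.138, limma adjusted p = 0.000867). All 13 OIR mice lay above the control median for each of these. The other 10 genes did not pass, and the median difference of the list was 0.12.

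Of the 11 NRF2 target genes and partners, *Hmox1*, which encodes heme oxygenase-1, was overexpressed on P17. Its log2 ratio was −1.17 ± 0.63 (SD, n = 13) in OIR and −2.86 ± 0.79 (n = 12) in control mice, a difference of 1.69 (SE 0.276, limma adjusted p = 0.000761). The other 10 did not pass. Of the 10 glucocorticoid response genes, *Tsc22d3* (GILZ), a target of the glucocorticoid receptor, was underexpressed, with a difference of −0.40 (SE 0.065, limma adjusted p = 0.000758), and 13 of 13 OIR mice had values under the median of the controls. The lists were chosen with earlier results of these arrays known, so their counts are no independent evidence.

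**Figure D4:**
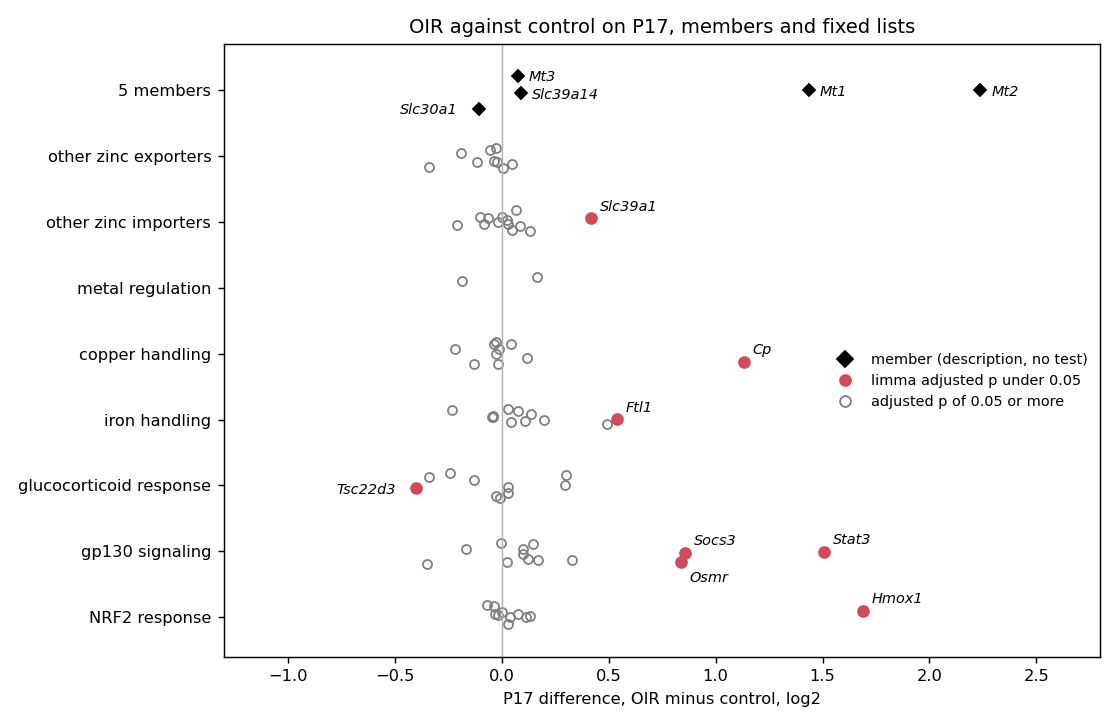
Difference between OIR and control mice on P17 (log2) for the 5 genes described here (diamonds, not tested) and for 80 other genes in 8 lists (circles), with filled circles for a limma adjusted p under 0.05. *Mt2* (2.24) and *Mt1* (1.44) lie to the right, while the other zinc exporters lie between −0.34 and 0.05.

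In control mice, 5 of the 80 genes were higher on P17 than on P12 (6.25%), and none was lower. Of all genes 2.32% passed, and of all probes 1.28%, with 0.618% of the probes higher. The 5 listed genes were *Sgk1* (0.92, SE 0.129, limma adjusted p = 5.97e-07), *Ddit4* (0.67) and *Tsc22d3* (0.39), which are known to respond to glucocorticoids, *Trf* (0.81), which encodes transferrin, and *Srxn1* (0.41), an NRF2 target. Over the same days *Mt2* and *Mt1* were higher by 1.29 and 1.14. From P17 to P28, 28 of the 80 genes changed in control mice (35%), 11 of them upwards and 17 downwards. Of all genes 19.1% changed. Of all probes 13.4% changed, 7.97% upwards and 5.39% downwards, and the arrays were brighter on P28. The part of brightness in these was not tested.

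On P17, markers of several cell types differed between OIR and control mice, some upwards and some downwards. Of all probes 1.14% passed on this day, and of all genes 2.31%. Of 4 astrocyte markers 2 were overexpressed, *Gfap* by 0.98 (SE 0.102, limma adjusted p = 1.18e-06) and *Aldh1l1* by 0.41, while *S100b* (−0.29) and *Pax2* (−0.02) did not pass. Of 5 markers of microglia and macrophages 2 were overexpressed, *Aif1* by 0.33 and *Csf1r* by 0.51. Of these 5, 4 had a positive difference, while *P2ry12* was 0.04 in OIR and 0.07 in control mice. *Hba-a1*, 1 of 3 red blood cell markers, was higher by 1.38, and *Rpe65*, 1 of 4 markers of the pigment epithelium, was lower, with a difference of −0.81. All 3 red blood cell markers had a positive difference, with 3 at an unadjusted limma p under 0.05. All 4 pigment epithelium markers had a negative one, with 3 at an unadjusted limma p under 0.05 and a median of −0.51. None of 6 Mueller glia markers passed with limma (0 of 6, with 4 at an unadjusted p under 0.05). All 6 were lower in OIR mice, and their median difference was −0.39. None of 4 endothelial, 5 rod or 4 lens markers passed with limma on P17 (2, 1 and 0 at an unadjusted p under 0.05). The mean log2 ratio over the astrocyte markers was between 0.55 and 1.18 in OIR and between 0.25 and 0.81 in control mice of P17, and that over the Mueller glia markers between 2.29 and 3.34 and between 2.01 and 3.84. On P28, *Csf1r* was higher by 0.41 (SE 0.078, limma adjusted p = 0.0307), and no other marker passed on P12 or P28. The part of these cells in the levels of *Mt1* and *Mt2* was not tested.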

How the data were processed

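Retinas of 77 mice were analyzed, with 1 two-color array per mouse. The authors scanned the arrays and, per the file headers, extracted median signals and local backgrounds as intensity values (Agilent Feature Extraction, version 10.7.3.1, per the submitters' processing notes). A second, deposited table gives the log2 ratio of the processed Cy3 to the processed Cy5 signal. At least 99.7% of its probes on every array agree within 0.001 with that ratio. Its scale, direction and lack of further centering follow from this match, and the medians of its columns were between −0.127 and 0.010. Gene symbols were looked up in RefSeq (GRCm38.p6) by the transcript accession of each probe, which gave 1 symbol for 28026 probes.

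Here, median signals were corrected with normexp (offset 50) and normalized by loess within arrays in limma 3.58.1 (R 4.3.3). Spots with outlier marks (0.592 to 0.951% of 62976) were left out, and spots of a probe were averaged. For 482 probes this left fewer arrays, and the fits used those remaining. No array was left out. OIR and control mice were compared for each day, and days in one model over the 6 groups, over 55681 probes with Benjamini-Hochberg adjustment at 0.05. In the retina channel, 13801 to 34328 probes of an array exceeded background clearly, and the number of arrays limits the precision. Each p-value measures the spread between mice, which are counted as independent. As whole litters were given one oxygen level and litter could not be fitted, the p-values can be too small. Permutations were made in numpy.

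The 5 genes and the gene lists were chosen with earlier results of these data known. By the rule for named genes these were the 5 members, the listed genes that passed for OIR against control on any day, and the 3 genes most like each member. Rod genes, other cell markers, *Mtf1*, *Mt4*, *Slc30a4*, and listed genes that passed between days in control mice from P12 to P17 or without the arrays that stood apart were named after their values were seen. The limma step was tested on simulated data. Alternatives were the deposited ratio, an offset of 0, no background subtraction, the slide as a block, a filter on dim probes, the retina channel alone and a single fit over the groups. Leaving out arrays that stood apart was chosen after seeing the data.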

Additional observations from a re-analysis of the deposited data

Results flagged for a closer look

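For 5 of the 80 listed genes the effect of oxygen differed between days, by the contrast of the effects in one limma model over the 6 groups (adjusted over 55681 probes). The effect was larger on P17 than on P12 for *Stat3* by 1.45 (SE 0.196, adjusted p = 2.28e-07), for *Cp* by 1.06 (SE 0.158, adjusted p = 3.41e-06) and for *Slc39a1* by 0.46 (SE 0.082, adjusted p = 0.000226), and it was more negative on P17 for *Tsc22d3*, with a change of −0.46 (SE 0.106, adjusted p = 0.0123). From P17 to P28 the effect changed by −1.88 for *Hmox1* (SE 0.448, adjusted p = 0.0325), by −1.12 for *Stat3* (SE 0.192, adjusted p = 0.000188) and by −0.64 for *Cp* (SE 0.155, adjusted p = 0.0403). Without OIR mouse 210 of P17, whose array stood apart, the changes of *Hmox1* (limma adjusted p = 0.0535) and *Cp* (limma adjusted p = 0.0693) from P17 to P28 did not pass. For comparison and without a test, the effect on *Mt2* was larger on P17 than on P12 by 2.33 and changed by −1.26 from P17 to P28, and that on *Mt1* by 1.57 and −0.91.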

How the results depend on the processing

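Differences of *Mt2* between OIR and control mice ranged from 1.87 to 2.47 (P17) and from 0.932 to 1.26 (P28) under all alternatives, and those of *Mt1* (brightest probe) were at least 1.19 (P17) and ranged from 0.504 to 0.729 (P28). Of 214 recomputed member differences, 7 moved by more than the SD between mice. These were those of the dim *Mt1* probe, *Slc30a1* on P17 and *Slc39a14* on P28 (0.15) with the deposited ratio, or an offset of 0 for the dim probe.

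The count of the 80 genes that passed was less stable, and the cause was not tested. Without the 4 arrays that stood apart, brightness differed between the OIR and control mice of P28. On P12 it was 0, and 1 with the deposited ratio. On P28 it was 0, but 2 with the deposited ratio and without background subtraction, 3 with the retina channel alone, 1 with an offset of 0, the slide as a block, the filter or one fit, and 5 without the 4 arrays that stood apart, with 3.14% of all probes (*Cp*, *Cntf*, *Heph* and *Trf* higher, *Steap3* lower). Without single arrays it was between 0 and 1, with 1 without OIR mouse 18 of P28. For the change of the effect from P12 to P17 it was 4, but 7 with an offset of 0 and without background subtraction, 8 with the slide as a block and 9 with the retina channel alone, and between 4 and 5 without single arrays. From P17 to P28 it was 3, but 24 without the 4 arrays, when 16.9% of all probes passed, and between 1 and 3 without single arrays, with 1 without OIR mouse 210 of P17. In control mice from P12 to P17 it was 5 (1.28% of all probes), but 8 (2.57%) with the deposited ratio, 9 (2.04%) with an offset of 0, 11 (3.17%) with the slide as a block and 10 (3.18%) with the retina channel alone.

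For *Mt2* and *Mt1*, r of P12 OIR mice was 0.75 and passed with slide means taken out, while 0.70 in P28 OIR mice did not pass without the 4 arrays. The P17 control mice held none of the 4 arrays, and r stayed at 0.69. Its adjusted permutation p moved from 0.0430 to 0.0508 through the adjustment over the 24 relations. For *Mt2* and *Slc30a1*, r in P12 OIR mice was −0.47 with the deposited ratio and −0.62 with slide means taken out, and did not pass, whereas in P28 control mice 0.73 and 0.71 passed. For *Mt2* and *Slc39a14* in P12 OIR mice, r was −0.13 with the deposited ratio and 0.54 with slide means taken out, and neither passed. This group held none of the 4 arrays either, and without them r stayed at 0.67. Its adjusted permutation p moved from 0.0430 to 0.0508 in the same way. No paired analysis was possible because every mouse has a number of its own. Brightness limits the dim *Mt1* probe and *Slc39a14*.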
